A study of Mus musculus with 35 samples.

Results

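The regions described here are stretches of the mouse autosomes that carried H3K27me3 peaks in every germ cell stage the study mapped. Members were selected on the H3K27me3 peak lists themselves: a bin of 10 kb had to lie fully under peaks in all 5 lists, and adjacent bins were joined. Of 244225 autosomal bins, 20743 met the rule (8.49%), which made 207.4 of 2442 Mb and 1601 joined regions. Histone marks were mapped with CATCH-seq, which immunoprecipitates native chromatin from few cells after micrococcal nuclease treatment and adds carrier DNA. In culture, the mouse embryonic stem cell line H18, with Prdm1-mVenus and Dppa3-ECFP reporters, gave oogonia-like cells (c7) and, later, oocyte-like cells (c13 and c34). Mice with those reporters gave fetal oocytes at E18.5, and BDF1 mice gave germinal vesicle (GV) oocytes. The genotype was labelled WT throughout. H3K27me3 was mapped at all 5 stages, and H3K4me3 and H3K36me3 at 4 of them, with c7 left out. The labels listed 35 libraries, inputs included, with 2 H3K27me3 libraries each for c7, c13, c34 and E18.5 and 1 for GV oocytes. H3K4me3 had 4 libraries in c13, 2 each in c34 and at E18.5, and 1 in GV oocytes. H3K36me3 had 2 at each of its 4 stages. The deposited data were 13 peak lists, 1 per stage and mark, so there was no replicate list, no test between stages and no known read depth. The 19 autosomes give the spread along the genome and are no replicates of a stage.

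H3K27me3 is placed by Polycomb repressive complex 2 and is bound by Polycomb repressive complex 1. It is known for covering silent developmental genes, in narrow form at CpG-rich promoters and in wide domains in growing oocytes. H3K4me3 marks promoters and, in full-grown mouse oocytes, also broad domains away from promoters. H3K36me3 follows transcription through gene bodies, and the methyltransferase that makes H3K27me3 works poorly on nucleosomes that carry it. A promoter with both H3K4me3 and H3K27me3 is called bivalent, but peaks of pooled cells do not show whether both marks sat on one nucleosome, allele or cell.

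The labelled cell type was checked by H3K4me3 at the starts of germ cell markers. All 6 (Ddx4, Dazl, Dppa3, Sycp3, Nobox and Figla) carried it in c13, c34 and GV oocytes, and 5 did so at E18.5, where Dppa3 lacked it. Of 19 genes known from ovarian somatic cells, 15 carried H3K4me3 in c13, 12 in c34, 9 in the E18.5 list and 13 in the GV list. Over all genes 70.4% carried it in c13, 65.0% in c34, 59.8% in the E18.5 list and 72.7% in the GV list, so these counts say little about cell type. Fshr and Cyp19a1 lacked it at all 4 stages. The part of other cells in the results below was not tested.

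Promoters of 8 genes in the regions are shown as examples, by the stages at which the gene start had H3K4me3. Each is the RefSeq promoter of GRCm38.p6, from 250 bases before to 50 after the start that table uses, printed 5′ to 3′ on the gene's strand with every CG dinucleotide in capitals. Foxa2 (chr2:148046920-148047219, minus strand), Irx3 (chr8:91801605-91801904, minus strand), Fgf5 (chr5:98253934-98254233, plus strand) and Bcl11b (chr12:108003365-108003664, minus strand) had H3K4me3 at the gene start at all 4 stages. For Bcl11b and Pax7 the printed stretch lies inside the gene, within 1 kb of the outer gene end at which H3K4me3 was called. In c13, H3K4me3 peaks filled all 10001 bp within 5 kb of that end, and so also the printed stretch. Pax7 (chr4:139832919-139833218, minus strand), Otx2 (chr14:48667595-48667894, minus strand) and Runx1 (chr16:92826025-92826324, minus strand) had it in c13 only. Gm52008 (chr12:107110831-107111130, plus strand), a predicted gene, had it at no stage.
Foxa2: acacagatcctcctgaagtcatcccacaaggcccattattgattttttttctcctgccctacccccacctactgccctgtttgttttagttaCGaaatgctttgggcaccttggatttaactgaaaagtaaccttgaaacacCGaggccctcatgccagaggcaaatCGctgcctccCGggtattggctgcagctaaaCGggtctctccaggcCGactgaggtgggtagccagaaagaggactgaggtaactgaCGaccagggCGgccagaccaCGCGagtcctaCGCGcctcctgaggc
Irx3: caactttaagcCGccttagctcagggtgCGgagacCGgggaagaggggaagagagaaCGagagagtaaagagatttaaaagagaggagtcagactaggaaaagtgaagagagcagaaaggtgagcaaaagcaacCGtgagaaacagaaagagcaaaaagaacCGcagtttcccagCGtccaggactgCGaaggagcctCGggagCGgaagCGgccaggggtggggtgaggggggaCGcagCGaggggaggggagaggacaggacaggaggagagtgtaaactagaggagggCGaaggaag
Fgf5: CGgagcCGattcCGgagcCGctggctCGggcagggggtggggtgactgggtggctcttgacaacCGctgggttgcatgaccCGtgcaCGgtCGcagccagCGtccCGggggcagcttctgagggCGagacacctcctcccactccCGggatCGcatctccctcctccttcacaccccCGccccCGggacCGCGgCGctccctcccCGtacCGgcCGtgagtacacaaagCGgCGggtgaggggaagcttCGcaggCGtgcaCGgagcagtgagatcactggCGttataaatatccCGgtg
Bcl11b: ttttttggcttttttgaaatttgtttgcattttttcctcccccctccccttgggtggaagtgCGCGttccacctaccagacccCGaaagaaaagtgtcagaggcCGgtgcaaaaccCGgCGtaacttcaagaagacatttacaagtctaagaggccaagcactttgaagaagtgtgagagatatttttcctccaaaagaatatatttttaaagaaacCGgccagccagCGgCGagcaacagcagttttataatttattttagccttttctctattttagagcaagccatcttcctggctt
Pax7: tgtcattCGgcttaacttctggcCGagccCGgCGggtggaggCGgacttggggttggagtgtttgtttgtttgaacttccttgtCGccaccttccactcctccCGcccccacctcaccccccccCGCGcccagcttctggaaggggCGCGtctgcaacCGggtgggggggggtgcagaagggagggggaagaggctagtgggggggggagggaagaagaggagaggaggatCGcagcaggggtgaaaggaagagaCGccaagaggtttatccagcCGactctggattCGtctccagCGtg
Otx2: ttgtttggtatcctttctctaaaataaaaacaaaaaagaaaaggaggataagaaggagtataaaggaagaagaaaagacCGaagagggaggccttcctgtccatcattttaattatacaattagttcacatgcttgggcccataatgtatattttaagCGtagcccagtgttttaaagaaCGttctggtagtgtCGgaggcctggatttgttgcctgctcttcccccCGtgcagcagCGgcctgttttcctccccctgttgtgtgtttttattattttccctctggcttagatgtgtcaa
Runx1: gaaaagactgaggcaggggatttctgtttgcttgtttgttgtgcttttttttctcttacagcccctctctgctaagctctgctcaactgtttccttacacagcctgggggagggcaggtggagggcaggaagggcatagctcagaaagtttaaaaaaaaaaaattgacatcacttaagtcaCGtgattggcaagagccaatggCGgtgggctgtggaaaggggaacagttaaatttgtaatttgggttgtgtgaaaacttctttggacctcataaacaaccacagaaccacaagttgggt
Gm52008: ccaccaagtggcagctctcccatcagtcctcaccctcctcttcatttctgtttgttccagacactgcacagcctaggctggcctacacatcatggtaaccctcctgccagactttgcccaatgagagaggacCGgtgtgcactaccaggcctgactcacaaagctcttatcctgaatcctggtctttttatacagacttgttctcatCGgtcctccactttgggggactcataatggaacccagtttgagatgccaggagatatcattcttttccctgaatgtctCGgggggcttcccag
CG dinucleotides numbered 12 in Foxa2, 14 in Irx3, 29 in Fgf5 and 9 in Bcl11b. They numbered 17 in Pax7, 6 in Otx2, 2 in Runx1 and 3 in Gm52008. Of 16457 autosomal promoters in the RefSeq table, 17.4% held at least as many as Fgf5, 54.9% at least as many as Foxa2, and 88.0% at least as many as Runx1. Among the printed examples, promoters with H3K4me3 in c13 alone thus ran from 17 CG (Pax7), a number that 44.4% of promoters reach, to 2 (Runx1). CG content over the whole set of genes was not compared. In the regions 2257 genes start, 10.9% of autosomal protein-coding genes. The table held a promoter for 1593 (70.6%) of them, so a comparison would have left out the rest.

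Regions ran from 10 to 2000 kb in width, with a median of 80 kb. Single bins made up 113 of them. The 1070 regions of at least 50 kb held 93.5% of the length, 46 reached 500 kb and 7 reached 1 Mb. Members took 2.56% of chromosome 1 and 2.74% of chromosome 3, and 14.1% of chromosome 17, 14.3% of chromosome 11 and 16.7% of chromosome 19. They made up 24.0% of the H3K27me3 length in c7, 19.9% in c13, 22.8% in c34, 21.2% in the E18.5 list and 29.8% in the GV list. Just outside the rule lay 28693 bins covered in 4 of 5 lists. The lacking list was GV for 11650 of these, E18.5 for 6399, c7 for 5731, c13 for 4549 and c34 for 364. GV oocytes, with the shortest list at 696.9 Mb, thus set the limit of the rule most often, and c34 least often.

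The widest region lay at chr12:106100001-108100000 on GRCm38 and spanned 2000 kb. In each stage 1 peak covered it whole, with a width of 2030 kb in c7, 2060 kb in c13, 2010 kb in c34, 2010 kb in the E18.5 list and 2020 kb in the GV list. Cover without a gap follows from the rule, whereas the peak widths show that each peak ended near the region's edges. It held Bcl11b, a zinc finger regulator of T cells and neurons, and the predicted genes Gm46320 and Gm52008. The next was chr16:92480001-93570000 (1090 kb), with Runx1, the regulator of blood stem cells, and the chloride channel gene Clic6. The region chr8:88780001-89820000 (1040 kb) held Sall1, a kidney and limb regulator, as its only whole gene. The region chr15:73990001-75010000 (1020 kb) held 21 whole genes, among them Arc, a synaptic immediate early gene, and the steroid enzymes Cyp11b1 and Cyp11b2. A region on chromosome 7 of 1010 kb held none. H3K36me3 peaks covered all 8 of the widest regions fully in c13 and none of their length at E18.5. In c34 their cover ran from 0% to 51.0%, and in GV oocytes from 0% to 57.8%, highest at the Arc region in both.

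**Figure D1:**
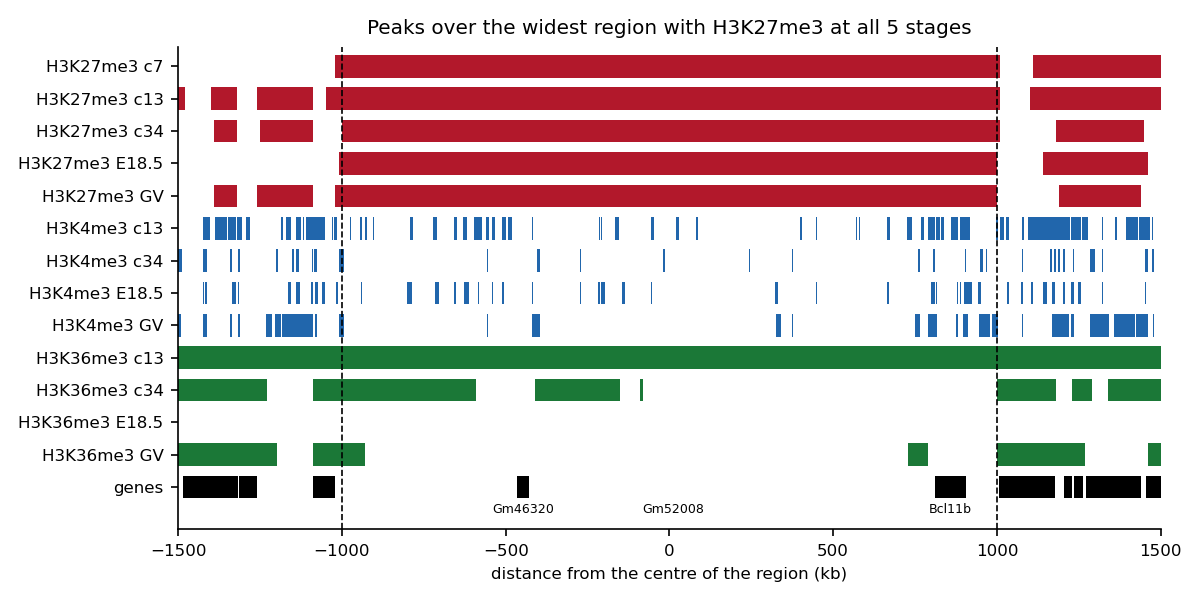
Peaks of 13 lists over the widest region, by distance from its centre in kb. Each row is 1 mark and stage, bars are peaks, the bottom row gives protein-coding genes and dashed lines mark the region's 2000 kb. H3K27me3 filled the region at all 5 stages, as the rule requires. H3K36me3 filled the region in c13 alone, and Bcl11b near the right edge had H3K4me3 at 4 stages.

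H3K4me3 was not used to choose the regions. It covered 19.4% of member length in c13, against 9.44% of all other bins, a ratio of 2.06. In c34 it covered 6.39% of members and 10.7% of other bins. At E18.5 it covered 7.36% of members and 5.21% of other bins, and in GV oocytes 22.6% of members and 25.3% of other bins. Members were higher on 18 of 19 chromosomes in c13, with chromosome 9 the exception (11.1% of members and 11.2% of other bins), and on 16 at E18.5. They were lower on all 19 in c34 and on 16 in GV oocytes. The early stages in culture and in the fetus thus had more H3K4me3 in members than elsewhere, and the c34 list had less. The GV difference turned with the choice of bins: against bins in 0 of the 5 H3K27me3 lists, GV members were higher by 6.53 percentage points. It also turned, to 13.8 points higher, when GV H3K27me3 was not required, and to 1.49 points higher when H3K27me3 peaks of 1 Mb or more were left out. Without the GV requirement the c34 difference was 0.610 points, also the other way.

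Members held 19 peak centres per Mb in c13, against 12 in other bins, and 10.6 per Mb in c34, against 14.8 in other bins. At E18.5 members held 12.9 per Mb, against 9.94 in other bins, and in GV oocytes 12.2 per Mb, against 14.6 in other bins. The median peak in members was 5 kb wide in c13, c34 and E18.5 lists and 12 kb in GV oocytes. Of 579 c13 peaks of at least 50 kb, 120 were centred in members (20.7%), against 162 of 2064 in GV oocytes (7.85%), 2 of 36 in c34 and 0 of 1 at E18.5. The widest in c13 spanned 537 kb over Prdm16, a regulator of brown fat and blood stem cells, Trp73 and 5 other genes. In c34 the widest, 57 kb, ran over Smug1 and Cbx5, and the next, 54 kb, over Hoxa3 to Hoxa11. In GV oocytes the widest, 180 kb, held the homeobox gene Nkx2-3 with Got1 and Cnnm1. H3K4me3 touched 1303 regions in c13 (81.4%), 992 in c34 (62.0%), 1069 in the E18.5 list (66.8%) and 1258 in the GV list (78.6%). In all, 800 regions were touched at all 4 stages and 143 at none. A wide region is touched more easily, and no such count was made outside members. By 10 kb bin, at least 1 kb of H3K4me3 lay at all 4 stages in 5.82% of member bins, against 7.00% of other bins. No stage had it in 46.5% of member bins, against 51.9% of other bins.

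H3K36me3 split the stages in another way. It covered 80.8% of member length in c13, against 42.1% of other bins, and was higher in members on all 19 chromosomes. In c34 it covered 18.3% of members and 38.5% of other bins, and in GV oocytes 19.2% of members and 40.6% of other bins, lower in members on all 19 chromosomes at both stages. At E18.5 it covered 17.1% of members and 24.7% of other bins, lower in members on 14 chromosomes. There the member cover ran from 0.229% on chromosome 11 to 69.5% on chromosome 14, so single chromosomes spread more widely than the difference. In c13, the lowest was chromosome 3 at 47.5% and the highest chromosome 11 at 94.4%. H3K36me3 in c13 alone was found in 48.3% of member bins (10014), against 9.07% of other bins. Of the regions, 1130 were fully covered in c13 (70.6%), 198 in c34, 268 in the E18.5 list and 252 in the GV list. A set of 418 regions (26.1%) was fully covered in c13 and held none in c34 and GV oocytes.

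The c13 value rested on very wide peaks. Peaks of 1 Mb or more made up 80.6% of the c13 H3K36me3 length, against 4.93% in c34, 36.5% in the E18.5 list and 5.05% in the GV list. They covered 75.0% of members in c13, and narrower c13 peaks covered 5.80% of members and 9.07% of other bins. Without the wide peaks the c13 difference was -3.26 points in place of 38.7, so the direction turned. The c34 and GV differences kept their direction in the same setting. How the wide c13 peaks were called is not given in the sources used here, and their part in the result beyond this setting was not tested.

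**Figure D2:**
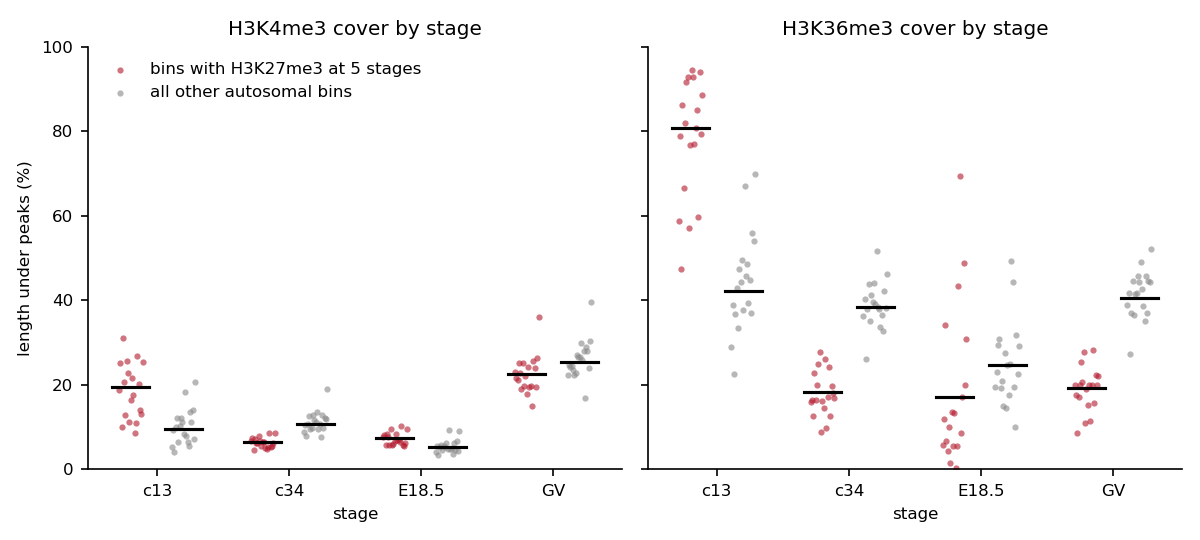
Share of length under H3K4me3 (left) and H3K36me3 (right) peaks in percent, by stage, for bins with H3K27me3 at all 5 stages (red) and all other autosomal bins (grey). Points are the 19 autosomes and black bars the value over all of them. H3K36me3 in members was high in c13 (80.8%) and lower than in other bins in c34 (18.3%) and GV oocytes (19.2%).

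Other classes of bins placed these values. Against the bins in 4 lists, the nearest to members, the H3K36me3 gaps were smaller: 16.8 points in c13, -4.95 in c34 and -7.16 in GV oocytes, beside 38.7, -20.2 and -21.4 against all other bins. Bins with H3K27me3 in c7, c13 and E18.5 only (10729 bins) had 76.2% H3K36me3 cover in c34 and 75.3% in GV oocytes, beside 18.3% and 19.2% in members. Their H3K4me3 cover was 26.4% in c34 and 36.4% in GV oocytes. In c13 they were close to members, with 76.3% H3K36me3, beside 80.8%, and 21.3% H3K4me3, beside 19.4%. Bins with H3K27me3 in c34 and GV only (4158 bins) had 12.3% H3K36me3 in c34 and 11.2% in GV oocytes, and 8.80% H3K4me3 in GV oocytes. In the late stages, members thus stood nearer to the bins marked late only for H3K36me3, and had more GV H3K4me3 than these. Members held 10.9 gene starts per Mb, against 5.10 in the late-only bins and 12.2 in the early-only bins.

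Across the edges of the 702 regions of at least 100 kb, H3K36me3 in c34 covered 16.2% at 45 kb inside, 29.1% in the first bin inside, 37.0% in the first bin outside and 62.1% at 95 kb outside. GV oocytes gave 18%, 29.0%, 36.4% and 61.5% at the same places. The c13 profile stayed between 77.9% and 82.0% at the 4 places, and the E18.5 profile between 17.7% and 19%. H3K4me3 in GV oocytes covered 22.2% at 45 kb inside, 35.8% just inside, 43.4% just outside and 31.9% at 95 kb outside, with its highest value in the bin beyond the edge. In c34 it was 7.80% just inside and 18% just outside. Outside the edges, bins of another member region were left out, so 1090 bins remained at 95 kb, beside 1404 just outside. The values outside thus describe bins that are not members. Each bin just outside lacked at least 1 H3K27me3 list, as the rule requires. Of 1404 such bins, 940 lacked full H3K27me3 cover in GV oocytes (67.0%), 375 in c7, 332 at E18.5, 323 in c34 and 113 in c13. GV H3K4me3 covered 56.6% of the bins that lacked GV H3K27me3 and 16.6% of those that kept it. In c34, H3K4me3 covered 27.6% of the bins that lacked c34 H3K27me3 and 15.1% of the rest, and H3K36me3 covered 67.5% of those that lacked it and 27.8% of the rest. The c13 list went the other way: where it lacked H3K27me3, H3K4me3 covered 14.2% and H3K36me3 58.4%, against 23.3% and 81.9% of the rest. At E18.5, H3K4me3 covered 18.4% of the bins that lacked H3K27me3 and 7.69% of the rest, and H3K36me3 17.5% and 17.7%. Cover also differed with width: GV H3K4me3 took 16.8% of regions of at least 200 kb, 29.2% of those of 50 to 200 kb and 36.7% of narrower ones.

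**Figure D3:**
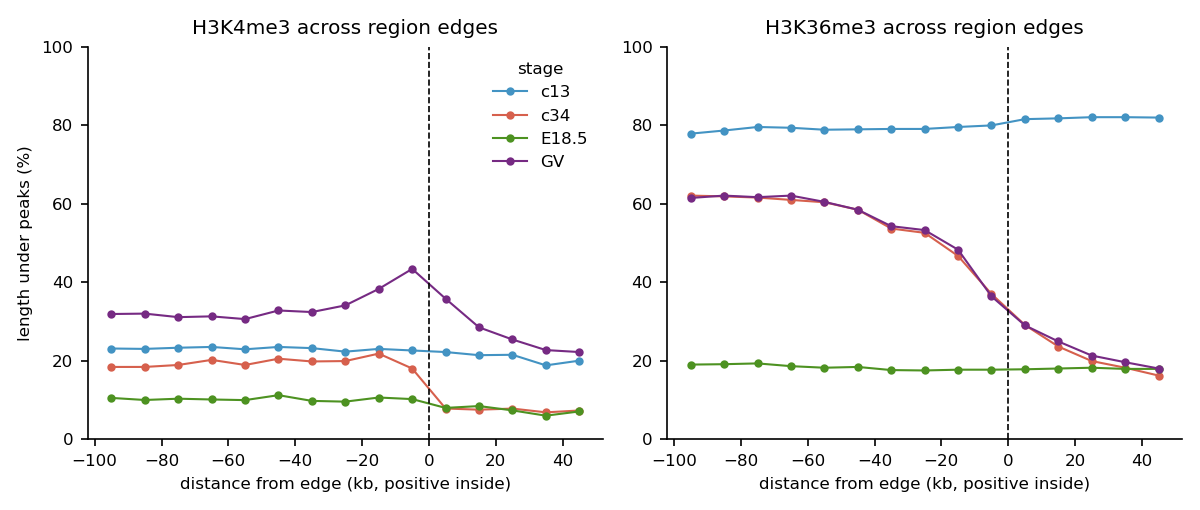
Share of length under H3K4me3 (left) and H3K36me3 (right) peaks in percent against distance from the edge in kb, positive inside, for regions of at least 100 kb. Each line is 1 stage and each point the mean over 10 kb bins at that distance. Outside the edge, bins of another member region were left out. GV H3K4me3 was highest just outside the edge (43.4%), and H3K36me3 in c34 and GV oocytes was lower inside than outside.

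Of 20665 autosomal protein-coding genes, 2257 started in the regions, which is a background share of 10.9% for every list below. Where RefSeq gave a promoter (79.6% of genes) its strand fixed the start, and otherwise either end of the gene counted. Members held 10.9 gene starts per Mb, against 8.24 in other bins, higher on 12 of 19 chromosomes. Gene bodies took 40.9% of member length and 41% of other bins, so members had more counted starts without more genic length. A gene without a strand counted by either end. A strand was known for 1593 (70.6%) of the genes in members, against 16457 (79.6%) of all autosomal protein-coding genes. Genes without a strand were thus more frequent in members than at large. The background of 10.9% and the list counts include them. Starts per Mb were not computed without such genes, so how much of the difference in starts came from this counting was not tested. In all, 1662 genes lay wholly inside regions, 399 regions (24.9%) touched no protein-coding gene and 628 (39.2%) held no gene start. At least 1 end lay in members for 17.4% of lncRNA genes, 14.9% of miRNA genes, 11.9% of protein-coding genes and 6.17% of pseudogenes.

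H3K4me3 lay within 1 kb of the start of 1618 of the 2257 genes in c13 (71.7%), against 70.2% of other genes and 70.4% of all. In c34 it did so for 996 (44.1%), against 67.5% of other genes and 65.0% of all, lower on all 19 chromosomes. At E18.5 it did so for 1069 (47.4%), against 61.3% of other genes and 59.8% of all, and in GV oocytes for 1306 (57.9%), against 74.5% of other genes and 72.7% of all, each lower on 18 chromosomes. In c13 the members' share was thus near the background, while at the other 3 stages it was below it. With H3K4me3 peaks of at least 5 kb only, the E18.5 difference shrank to -2.80 points. The c13 difference also turned, to -0.891 points among genes with a known strand and to -2.38 points among genes wholly inside regions. H3K4me3 was present at all 4 stages at 695 genes of the regions (30.8%), against 56.3% of other genes. It was present in c13 alone at 207 (9.17%), against 369 other genes (2.00%), and at no stage at 456 (20.2%), against 19% of other genes.

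H3K36me3 covered at least 20% of the body of 1874 of these genes in c13 (83%), against 68.3% of other genes and 69.9% of all. In c34 it did so for 761 (33.7%), against 68.3% of other genes and 64.5% of all. At E18.5 it did so for 308 (13.6%), against 22.3% of other genes and 21.4% of all. In GV oocytes it did so for 738 (32.7%), against 66.8% of other genes and 63.1% of all. Members were lower on all 19 chromosomes in c34 and GV oocytes. The c13 difference was -6.67 points, and so reversed, without H3K36me3 peaks of 1 Mb or more. Body cover in c13 but in neither c34 nor GV oocytes was found for 1017 genes (45.1%), against 9.12% of other genes. Genes covered in both c34 and GV oocytes numbered 557 (24.7%), against 62.2% of other genes. Among them in the widest regions were Adgrb1, an adhesion receptor of neurons, with 100% of its body covered in c13, 81.2% in c34, 0% in the E18.5 list and 100% in the GV list, and Arhgef10l with 100%, 100%, 0% and 89.4% in the same order.

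**Figure D4:**
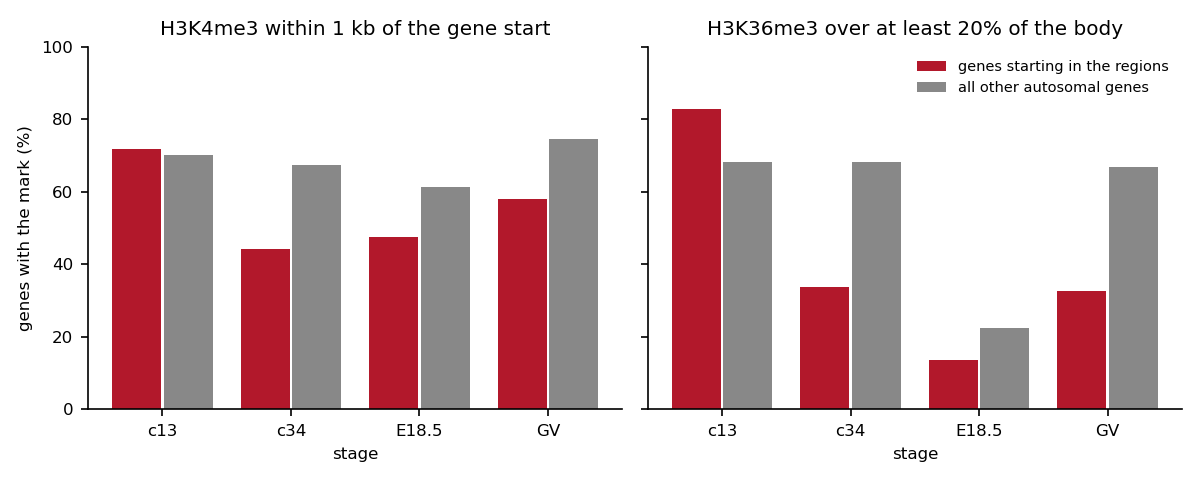
Percent of protein-coding genes with H3K4me3 within 1 kb of the start (left) and with H3K36me3 over at least 20% of the body (right), by stage. Red bars are the 2257 genes that start in the regions and grey bars all other autosomal genes. The bars differ little for H3K4me3 in c13 (71.7% in the regions, 70.2% elsewhere) and most for H3K36me3 in c34 (33.7% in the regions, 68.3% elsewhere).

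Developmental regulators started in the regions more often than genes at large. Of 79 regulators of mesoderm, endoderm and neural fate and signalling ligands, 38 did so (48.1%), which can be read against the background of 10.9%. These lists hold classical Polycomb targets. All 38 had H3K4me3 at the start in c13, 29 in c34, 31 in the E18.5 list and 31 in the GV list, and 25 at all 4 stages. Over all genes the shares at these stages were 70.4%, 65.0%, 59.8% and 72.7%. H3K36me3 covered at least 20% of the body in 19 of them in c13, 4 in c34, 9 in the E18.5 list and 4 in the GV list, where all genes gave 69.9%, 64.5%, 21.4% and 63.1%.

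Among mesoderm and endoderm regulators, 12 of 30 started in members. The value given for each gene is the length of H3K4me3 peaks within 5 kb on either side of its start, at most 10001 bp, and the larger of both ends where no strand was given. Foxa2, a pioneer factor of endoderm, had 10001 bp in c13, 8032 in c34, 7032 in the E18.5 list and 7032 in the GV list. Cdx2, the regulator of trophectoderm and gut, had 10001, 5752, 10001 and 10001 bp in the same order. Isl1, a LIM homeobox gene of heart and motor neurons, had 10001 bp in c13, 5688 in c34, 3000 in the E18.5 list and 0 in the GV list. Tbx5, a regulator of heart and forelimb, had 5514 bp in c13 and 0 at the other 3 stages. Foxa2 and Cdx2 thus kept wide H3K4me3 throughout, Isl1 lacked it in GV oocytes, and Tbx5 had it in c13 alone. Of the 18 list genes outside members, 12 started in bins in 4 lists. Of these 12, 11 lacked only the GV list, among them T, Sox17, Gsc, Hand2 and Twist1. GV was also the lacking list for 40.6% of all bins in 4 lists.

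Of 29 neural regulators, 17 started in members (58.6%). Irx3, an Iroquois gene of neural patterning, had 10001 bp of H3K4me3 in c13, 9654 in c34, 9654 in the E18.5 list and 9654 in the GV list. Pax7, which marks neural crest and muscle stem cells, had 10001 bp in c13 and 0 at the other 3 stages. Otx2, a regulator of the forebrain, likewise had 10001 bp in c13 and 0 elsewhere. Neurog2, Atoh1 and Neurod1, proneural factors, had H3K4me3 at the start at all 4 stages. The genes with H3K4me3 in c13 alone lay in wide regions, of 1010 kb for Pax7 and 490 kb for Otx2, but Irx3 lay in one of 620 kb. Their promoters are among those printed above.

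Of 20 signalling ligands, 9 started in members. Fgf5, a growth factor of the early epiblast, had 4000 bp of H3K4me3 in c13, 4000 in c34, 3000 in the E18.5 list and 5000 in the GV list. Ihh, the Hedgehog ligand of cartilage, had 6329, 6329, 5000 and 6329 bp. Gdf10, a TGF-beta family ligand, had 5587 bp in c13, 0 in c34, 5000 in the E18.5 list and 0 in the GV list. Nog, a BMP antagonist counted in this list, had 9559, 0, 10001 and 6000 bp in the same order. Fgf5 and Ihh differed little over the stages, whereas Gdf10 had H3K4me3 in the 2 early stages only.

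Homeobox and related families were frequent. Of 39 Hox genes, which pattern the body axis, 37 started in members (94.9%). The exceptions were Hoxb1 and Hoxb2. The Hoxa cluster lay in a region of 260 kb, and Hoxc and Hoxd in regions of 130 kb each. H3K4me3 lay at 37 of the Hox starts in c13, 35 in c34, 34 in the E18.5 list and 35 in the GV list. H3K36me3 covered no Hox body in c34, at E18.5 or in GV oocytes, and in c13 all 17 of Hoxb and Hoxc and none of Hoxa and Hoxd. All-gene shares for H3K36me3 bodies were 69.9% (c13), 64.5% (c34), 21.4% (E18.5) and 63.1% (GV). For H3K4me3 starts they were 70.4%, 65.0%, 59.8% and 72.7% in that order. Peaks of 1 Mb or more made up 80.6% of the c13 H3K36me3 length. Their part in the Hoxb and Hoxc calls was not tested. Pax genes gave 7 of 9, Iroquois genes 5 of 6, NK homeobox genes 10 of 14, Distal-less genes 4 of 6 and Forkhead genes 20 of 41. Pax5, the B cell regulator, had 9307 bp of H3K4me3 in c13, 0 in c34, 0 in the E18.5 list and 4000 in the GV list, and Pax8, of thyroid and kidney, had 3000 bp in c13 and 0 elsewhere.

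Clustered genes of differentiated tissues formed a second kind of member. Keratins (Krt), the filament proteins of epithelia, gave 33 of 53, of which 15 lay in 1 region of 370 kb on chromosome 11. H3K4me3 lay at 19 of the 33 starts in c13, 4 in c34, 5 in the E18.5 list and 7 in the GV list. H3K36me3 covered all 33 bodies in c13, 0 in c34, 0 in the E18.5 list and 4 in the GV list. Keratin-associated proteins (Krtap), which bind hair keratins, gave 25 of 56, with H3K4me3 at 2 starts in c13, 0 in c34, 0 in the E18.5 list and 3 in the GV list. Serpins, protease inhibitors, gave 20 of 62, with H3K4me3 at 2 starts in c13 and at none in the other 3 lists. Clustered protocadherins, adhesion proteins of neurons, gave 35 of 57, with H3K4me3 at 34 starts in c13, 6 in c34, 7 in the E18.5 list and 25 in the GV list. Most keratin and all serpin genes in members thus lacked H3K4me3 at the start outside c13, unlike the Hox genes, while protocadherins had it in c13 and GV oocytes. Genes of 1 cluster share a region and often a peak, so they are not separate observations. These counts can be read against the all-gene shares given with the Hox genes, such as 69.9% for H3K36me3 bodies in c13. The part of c13 H3K36me3 peaks of 1 Mb or more in the keratin calls was not tested.

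**Figure D5:**
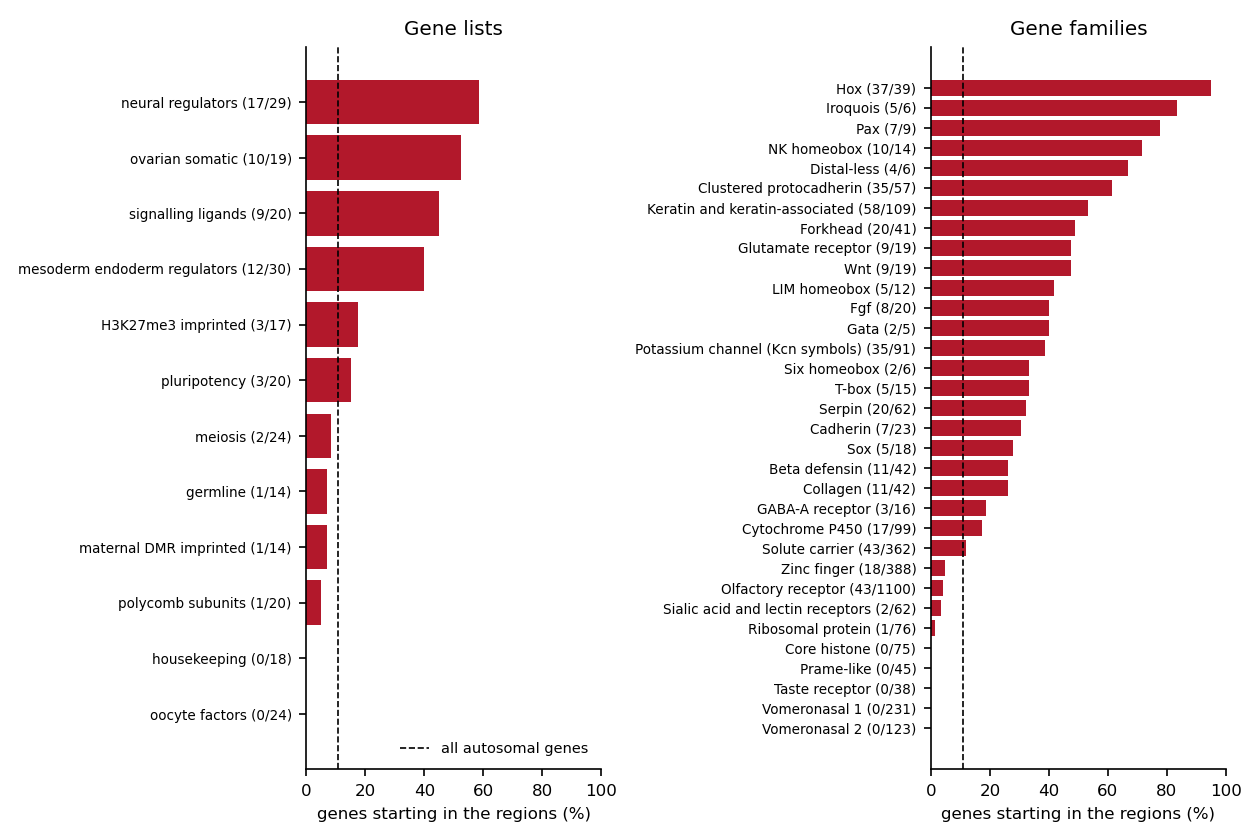
Percent of genes that start in the regions, for 12 gene lists (left) and 33 gene families (right), with the number in members over the number on autosomes in brackets. The dashed line is the share of all autosomal protein-coding genes (10.9%). Hox genes (94.9%) stand highest, and oocyte factors, housekeeping genes, core histones and vomeronasal receptors stand at 0.

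None of 24 oocyte factors and 0 of 18 housekeeping genes started in the regions. Germline genes (1 of 14) and meiosis genes (2 of 24) were near the background of 10.9%. Of the 24 oocyte factors, 21 lacked full GV H3K27me3 cover of the bin that holds the start. The GV list covered 696.9 of 2442 autosomal Mb, so most of the autosomes lacked it too. H3K27me3 in c7, c13 and E18.5 only was found at 7 of the 24. Such bins were 10729 of 244225 autosomal bins and held 1311 counted starts of the 20665 autosomal protein-coding genes. Among these 7 were the zona pellucida genes Zp1 and Zp2 and the growth factor gene Gdf9. The germline gene in members was Tdrd6, of the germ granule, with 3000 bp of H3K4me3 in c13, 9846 in c34, 4155 in the E18.5 list and 10001 in the GV list. The meiosis genes were Mei1 and the cohesin gene Smc1b, whose start alone lay in a region (2.91% of its body). Of 20 pluripotency genes, Klf4, Fgf4 and Esrrb started in members. Esrrb had no H3K4me3 within 5 kb of its start at any stage, and Klf4 had 8000, 7475, 4000 and 7475 bp. Large sensory families were low or absent, with 43 of 1100 olfactory receptors, 0 of 231 vomeronasal type 1 and 0 of 123 type 2 receptors.

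Ovarian somatic genes were frequent, with 10 of 19 in members. Foxl2, the granulosa cell regulator, had 10001 bp of H3K4me3 in c13, 6000 in c34, 7394 in the E18.5 list and 10001 in the GV list. Lhcgr, the luteinising hormone receptor, had 6059 bp in c13 and 0 at the other 3 stages. Fst, follistatin, had 7000 bp in c13, 3000 in c34, 5000 in the E18.5 list and 0 in the GV list, and Inha, an inhibin subunit, 7000, 4924, 3000 and 0 bp. Foxl2 thus kept H3K4me3 throughout, while Fst and Inha lacked it in GV oocytes alone. Other genes of the list differed from these: Pdgfra had 8322, 8322, 0 and 10001 bp, and Nr2f2 had 9255, 9255, 4255 and 10001 bp. Of the 10 genes, 9 had H3K4me3 at the start in c13, 7 in c34, 5 in the E18.5 list and 5 in the GV list. All genes gave 70.4%, 65.0%, 59.8% and 72.7% in that order.

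Of 17 genes known for imprinting by maternal H3K27me3, 3 started in members, namely Runx1, Tle3 and Sall3. Runx1 had 9927 bp of H3K4me3 in c13 and 0 at the other 3 stages. Tle3, a Groucho corepressor, had 10001, 8000, 6000 and 6000 bp, and H3K36me3 over 100% of its body in c13 and c34 and 0% at E18.5 and in GV oocytes. Of the 14 others, 3 lacked GV H3K27me3 at the start, and the rest had it there and lacked another list, as did Jade1 and Gab1, which had it in c34 and GV oocytes only. Among 14 genes imprinted through maternal germline DNA methylation, only Kcnq1 was counted. No strand was given for it, so an end counted, and 2.20% of its body lay in members. All 13 others lacked GV H3K27me3, as did most of the autosomes, since that list covered 696.9 of 2442 Mb. Grb10, Nnat, Peg10 and Mest had H3K27me3 in c7, c13 and E18.5 only. Of 20 genes of Polycomb subunits and related enzymes, only Cbx2, a reader of H3K27me3, started in members, in a region of 770 kb, with 10001, 10001, 5982 and 7982 bp of H3K4me3.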

How the data were processed

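The deposited files were 13 peak lists whose values are in an other unit than counts: per the file headers each peak has a chromosome, a start and an end in base pairs, with no score. The submitters' processing notes name the peak callers MACS2 2.1.1 and SICER 0.0.41, the aligner Bowtie2 2.3.4.1 and the trimmer Trim Galore 0.4.1, among others. The caller, threshold and pooling behind each list were not given in the sources used here, and depth is unknown, so a longer list may be a deeper one. Peak ends fell on multiples of 1 kb for H3K4me3 and of 10 kb for H3K27me3 and H3K36me3. Cover was the length under peaks, from the first to the last bin of each chromosome with a peak or gene. Genes came from RefSeq on GRCm38.p6. Of 261 list entries, 3 had no match among protein-coding genes. The members and lists were chosen with earlier results of these data known. Named genes were those of the widest regions, then list members by width of region and symbol; list genes outside members and some examples were named after their values were seen. The code for member bins, joined regions and cover recovered all values of 20 simulated sets. Gene starts, gene calls, edge profiles and list counts were not simulated. Python 3.11.15, numpy 2.4.6, pandas 2.3.3 and matplotlib 3.10.9 were used. Input libraries were not used here.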

Additional observations from a re-analysis of the deposited data

Results flagged for a closer look

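The difference in H3K4me3 cover between members and all other bins pointed both ways over the stages. It was 10.0 percentage points in c13, -4.34 in c34, 2.15 in the E18.5 list and -2.67 in the GV list. For H3K36me3 it was 38.7 points in c13, -20.2 in c34, -7.55 in the E18.5 list and -21.4 in the GV list. Each stage is 1 list per mark, so these differences between stages were not tested.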

How the results depend on the processing

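Of 305 values under alternatives, 152 of them leaving out 1 chromosome, 285 kept their direction and stayed within the spread over chromosomes (counts within 1.5 times), 12 moved further and 8 reversed. Members took 323.9 Mb without the GV list and 96.31 Mb without H3K27me3 peaks of 1 Mb or more. Differences in cover (members minus others, percentage points) were, for H3K4me3 in c34, 0.610 without the GV list and -1.61 against bins in 0 lists. For H3K4me3 in GV oocytes they were 13.8 without the GV list, -6.33 without the c13 list, -6.25 with 50 kb bins, 1.49 without H3K27me3 peaks of 1 Mb or more, 6.53 against bins in 0 lists and -11.4 against bins in 4 lists. For H3K36me3 in c13 they were 50.7 against bins in 0 lists, 16.8 against bins in 4 lists and -3.26 without its peaks of 1 Mb or more. Against bins in 4 lists they were -4.95 in c34 and -7.16 in GV oocytes, and without the GV list -13.6 in GV oocytes. Among genes, H3K4me3 at starts was -2.80 at E18.5 with peaks of at least 5 kb. Settings chosen after seeing the data gave -0.891 (known strand) and -2.38 (genes wholly inside) for H3K4me3 starts in c13, and -6.67 for H3K36me3 bodies in c13 without peaks of 1 Mb or more. The cause was not tested. No paired analysis was possible because each stage and mark has 1 list, and for the same reason no replicate could be left out. Unknown depth limits any comparison of lengths between stages.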
